A study of Mus musculus with 29 samples.

Results

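The retinoblastoma family and the DREAM complex are described here through 9 genes measured by bulk RNA sequencing in mouse ovary: Rb1, Rbl1, Rbl2, Lin9, Lin37, Lin52, Lin54, Mybl2 and Foxm1. They were chosen by name, with earlier results of these data known, and all 9 were found by Ensembl ID among the 51912 genes of the count table. The 29 samples came from wild-type mice (Cdkn1b +/+) or from mice homozygous for a null allele of Cdkn1b (Cdkn1b -/-, here Cdkn1b-null), which encodes the cyclin-dependent kinase inhibitor p27Kip1. The 4 ages were embryonic, at days E13.5 and E18.5 of gestation, and postnatal, at day 8 after birth (PND8) and in adults of 12 weeks (12wk). Ovaries were dissociated with papain and RNA was extracted from all cells together. Each age had 4 wild-type samples, and 3 Cdkn1b-null samples except at E18.5, which had 4. The study asked how control of the cell cycle bears on the development of the ovary. The mutation is in every cell of the animal. Strain, litter and whether animals were pooled are not given in the sources used here, so a p-value measures the spread between these samples, which may be partly technical.

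The pocket proteins RB1, p107 (gene Rbl1) and p130 (gene Rbl2) bind E2F transcription factors and hold back genes needed to enter S phase. In quiescent cells p130, or p107 in its place, joins E2F4 or E2F5, a DP partner and the MuvB core of LIN9, LIN37, LIN52, LIN54 and RBBP4 to form DREAM, which represses cell cycle genes at G1/S through E2F sites and at G2/M through CHR elements. In cycling cells the MuvB core leaves the pocket protein and binds B-MYB (gene Mybl2) and later FOXM1, which activate the genes of G2 and mitosis. Cyclin D and cyclin E kinases phosphorylate the pocket proteins and so release E2F, and p27Kip1 inhibits cyclin E kinase.

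Several of these regulators are themselves known E2F target genes, so the DNA just before the start sites is shown for Rbl1, the pocket gene called between genotypes at E18.5, for the activator gene Mybl2, and for Rbl2 as a pocket gene with another pattern. The promoter table held 6 of the 9 genes (Rbl1, Rbl2, Lin37, Lin52, Lin54 and Mybl2). Each line gives the 250 bases before the RefSeq start on GRCm38.p6, read 5′ to 3′ on the strand of the gene, at chr2:157204535-157204784 (minus) for Rbl1, chr2:163054385-163054634 (plus) for Mybl2 and chr8:91069807-91070056 (plus) for Rbl2. Capitals mark a match to an E2F word or a CHR word.
Rbl1: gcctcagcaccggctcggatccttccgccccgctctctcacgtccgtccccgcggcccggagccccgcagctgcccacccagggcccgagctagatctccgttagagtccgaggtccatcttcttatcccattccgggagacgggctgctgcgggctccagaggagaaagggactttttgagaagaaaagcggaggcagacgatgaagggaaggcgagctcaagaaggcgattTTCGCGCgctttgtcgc
Mybl2: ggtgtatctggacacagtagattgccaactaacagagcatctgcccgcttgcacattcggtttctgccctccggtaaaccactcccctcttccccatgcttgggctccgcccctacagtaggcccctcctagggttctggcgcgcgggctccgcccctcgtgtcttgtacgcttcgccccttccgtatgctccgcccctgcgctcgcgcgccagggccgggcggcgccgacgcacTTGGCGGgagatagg
Rbl2: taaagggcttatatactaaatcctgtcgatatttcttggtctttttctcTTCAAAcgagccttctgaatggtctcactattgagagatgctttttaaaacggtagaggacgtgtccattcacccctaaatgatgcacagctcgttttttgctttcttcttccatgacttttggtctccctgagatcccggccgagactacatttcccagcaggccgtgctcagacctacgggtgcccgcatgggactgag

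An E2F word was a stem followed by either C or G, and the stems searched on both strands were TTGGCG first, then the stem TTCCCG besides the similar stem TTCGCG together with the last stem TTGCCG only. The CHR word, which overlaps none of these, was TTTGAA. Of 32851 promoters of the same length, 14.7% held an E2F word, 16% held the CHR word and 1.36% held both. The Rbl1 promoter had TTCGCGC from 17 to 11 bases before the start, and the Mybl2 promoter had TTGGCGG from 15 to 9 bases before it. The Rbl2 promoter had no E2F word and had the CHR word on the opposite strand, printed as TTCAAA, 201 to 196 bases before the start. Among those not printed, Lin52 had TTCCCGC 26 to 20 bases before the start and Lin37 had TTTGAA 197 to 192 bases before it. Lin54 has 2 starts in the table: the first promoter had neither word and the second had both. A match describes the letters and is not evidence of binding.

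Library totals ran from 14.1 to 48.21 M counts, at 14.1 to 24.85 M before birth and 24.07 to 48.21 M after it. Levels are CPM, counts relative to the library's total after TMM scaling over all samples, and a gene is called when its Benjamini-Hochberg adjusted p in edgeR's quasi-likelihood test, over all genes tested, is under 0.05. Cdkn1b itself averaged 22.8 ± 3.01, 103 ± 13.6, 149 ± 18.5 and 183 ± 68.4 CPM in wild type at the 4 ages (SD, n = 4) and 4.49 ± 0.203 (n = 3), 12.7 ± 2.65 (n = 4), 71.7 ± 8.3 (n = 3) and 51.2 ± 8.55 CPM (n = 3) in Cdkn1b-null ovaries, and no Cdkn1b-null library reached a wild-type library of its age. Ovarian markers were present: Foxl2, a granulosa lineage factor, was at 4.2 to 17.1 CPM at E13.5 and 439 to 533 CPM at PND8 in wild type, and the germ cell gene Ddx4 was at 96.9 to 125 CPM at E13.5 in wild type. At 12wk Ddx4 was at 0.108 to 0.783 CPM over both genotypes. The wild-type E13.5 replicate 3 stood apart, with 12.7% of its counts in 6 erythroid markers while the remaining wild-type E13.5 libraries held 0.488% to 0.84%.

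In wild-type ovaries the order of the members by level differed between ages. Levels between genes are compared only per kilobase of exon. At E13.5, Lin37 was highest at 19.7 ± 2.89 CPM per kilobase, followed by Mybl2 at 13.4 ± 3.47 and Lin52 at 8.41 ± 1.33 (SD, n = 4). The samples of Mybl2 overlapped those of both its neighbours, and Lin52 did not overlap the next gene, Rbl1, at 5.83 ± 0.847. Foxm1 was lowest at 2.13 ± 0.213 CPM per kilobase, and its samples overlapped those of Lin9 at 2.38 ± 0.326. At PND8 the order was led by Rbl2 at 19.9 ± 4.07 and Foxm1 at 16.6 ± 1.99 CPM per kilobase, which overlapped each other and stood above Lin37 at 13.2 ± 0.626. At 12wk Rbl2 stood alone at 19.3 ± 2.26 CPM per kilobase, above Lin37 at 11.9 ± 0.52. These levels depend on the length used, and for Lin9 the longest transcript in place of all exons raised the E13.5 level to 5.46.

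**Figure D1:**
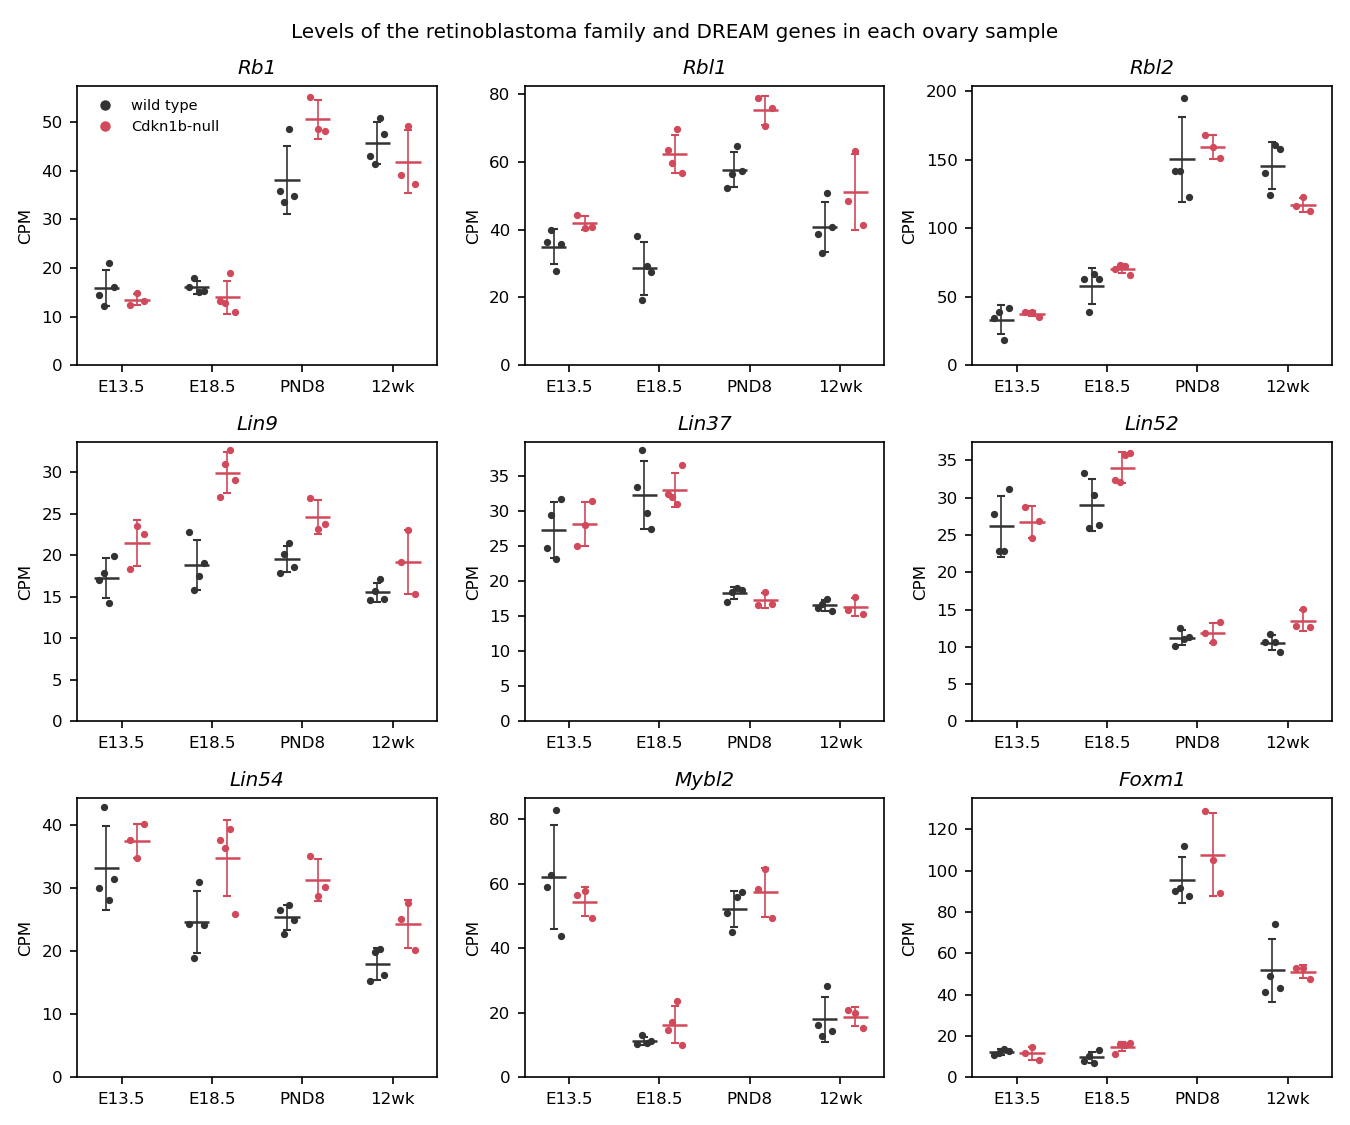
Level in CPM (vertical axis, from 0) of each of the 9 genes at each age (horizontal axis), wild type in black and Cdkn1b-null in red. Points are samples, and lines and bars are the mean and SD of 3 or 4 samples. Rbl1 at E18.5 is at 19.3 to 38.1 CPM in wild type and 56.7 to 69.7 CPM in Cdkn1b-null ovaries, and Foxm1 is at 16.5 CPM or less in every sample before birth and at 41.2 CPM or more after it.

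At E18.5, Rbl1 and Lin9 were the members higher in Cdkn1b-null than in wild-type ovaries: 2 of 9 were called, both higher, against a background of 4.99% of 16322 genes. Rbl1 (ENSMUSG00000027641, chromosome 2, 157145893 to 157204534, minus strand on GRCm38), which encodes the pocket protein p107, was at 38.1, 19.3, 29.2 and 27.5 CPM in wild type and at 63.3, 59.5, 69.7 and 56.7 CPM in Cdkn1b-null samples. The groups did not overlap. The change was 2.14-fold (log2 fold change 1.10, SE 0.172, edgeR adjusted p 0.00517). Lin9 (ENSMUSG00000058729, chromosome 1, 180641150 to 180690694, plus strand), which encodes a scaffold subunit of the MuvB core, was at 22.8, 15.8, 17.5 and 19.1 CPM in wild type and at 27, 31, 32.7 and 29.1 CPM in Cdkn1b-null samples, again without overlap. It rose 1.56-fold (log2 fold change 0.64, SE 0.136, edgeR adjusted p 0.0223). The Rbl1 call held without any 1 of the 8 libraries, at log2 fold changes of 0.96 to 1.26 and adjusted p up to 0.0279. The Lin9 call was lost without wild-type replicate 3 or 4 or Cdkn1b-null replicate 2, 3 or 4, at log2 fold changes of 0.60 to 0.66 and edgeR adjusted p of 0.0577 to 0.093.

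The other 7 members were not called at E18.5. Foxm1, which encodes a forkhead activator of mitotic genes, was at 8.04, 10.3, 7.14 and 13.2 CPM in wild type and at 11.5, 16, 15.7 and 16.5 CPM in Cdkn1b-null samples, which overlap (log2 fold change 0.60, SE 0.214, edgeR adjusted p 0.134). DESeq2 called it with an adjusted p of 0.0455. Mybl2, the gene of the B-MYB activator, was at 10.4 to 13.1 CPM in wild type and at 14.6, 17.1, 23.7 and 10 CPM in Cdkn1b-null samples (log2 fold change 0.49, SE 0.232, edgeR adjusted p 0.241), so 3 of the 4 lay above every wild-type sample. Lin54, the CHR-binding subunit, had a log2 fold change of 0.47 (SE 0.168, edgeR adjusted p 0.132), with one Cdkn1b-null sample at 25.9 CPM inside the wild-type range of 19 to 30.9 CPM and the other 3 at 36.4 to 39.3 CPM. Rbl2 and Rb1, the other pocket genes, had log2 fold changes of 0.26 (SE 0.149) and -0.23 (SE 0.181). The 2 small MuvB subunits Lin52 and Lin37 had 0.20 (SE 0.117) and 0.00 (SE 0.132). Among the MuvB subunits, Lin9 was thus called and Lin37 had the smallest difference, and whether they differ from each other was not tested.

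**Figure D2:**
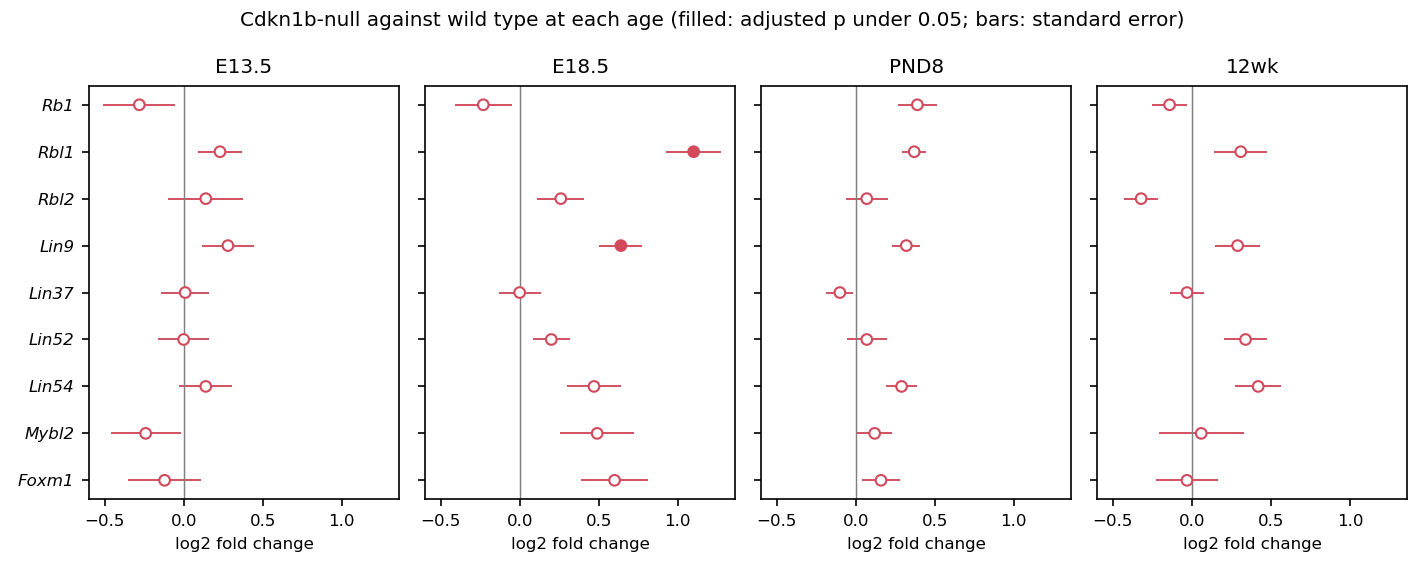
Log2 fold change of Cdkn1b-null against wild type (horizontal axis) for each of the 9 genes (rows) at the 4 ages (panels), with standard errors as bars and filled points for an edgeR adjusted p under 0.05. The filled points are Rbl1 at 1.10 and Lin9 at 0.64, both at E18.5.

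Rbl1 took a larger share of the pocket gene RNA at E18.5 in Cdkn1b-null ovaries. Of the summed length-scaled level of Rb1, Rbl1 and Rbl2, Rbl1 made up 31.2% ± 3.74 (range 28.4% to 36.7%) in wild type and 47.1% ± 0.998 (45.6% to 47.8%) in Cdkn1b-null samples (SD, n = 4 each). Rbl2 made up 50.4% ± 4.58 and 42.5% ± 2.28, and Rb1 made up 18.4% ± 5.32 and 10.4% ± 1.7. The ranges of wild type and Cdkn1b-null did not overlap for any of the 3 genes at this age, and these shares sum to a whole, so they are not separate results. At 12wk Rbl1 made up 20.1% ± 1.45 (n = 4) and 27.2% ± 2.75 (n = 3), again without overlap. Its share overlapped between genotypes at E13.5 (42.1% to 48.1% and 47% to 50.6%) and at PND8 (24.2% to 30.1% and 28.8% to 31.1%). The Rb1 share at PND8 was higher in Cdkn1b-null samples (16.5% to 18.3% and 19.7% to 20.6%), the opposite of E18.5. In wild type the Rbl1 share went from 45.1% ± 2.63 at E13.5 to 20.1% at 12wk while the Rbl2 share went from 33.6% ± 7.14 to 57.2% ± 1.26. These shares depend on the length used. With the longest transcript in place of all exons, Rbl1 made up 27.6% and Rbl2 55.4% at E18.5 in wild type. In Cdkn1b-null samples Rbl1 then made up 42.5% and Rbl2 47.7%, so which of them was higher there depends on the length.

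**Figure D3:**
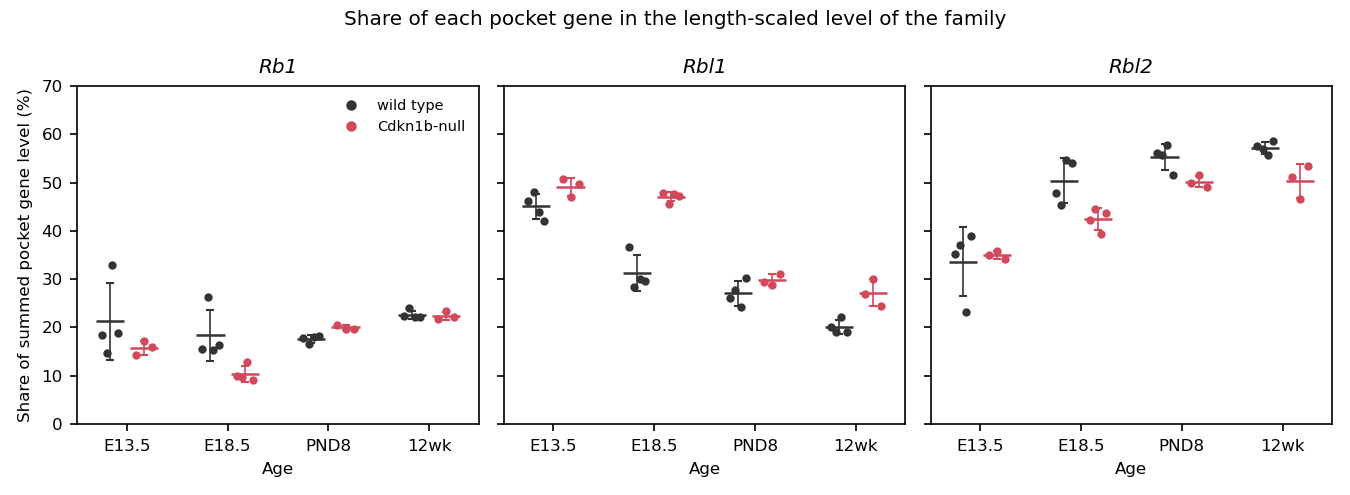
Share (percent, vertical axis) of Rb1, Rbl1 and Rbl2 in their summed CPM per kilobase at each age (horizontal axis), wild type in black and Cdkn1b-null in red. Points are samples, and lines and bars are the mean and SD. The Rbl1 share at E18.5 is 28.4% to 36.7% in wild type and 45.6% to 47.8% in Cdkn1b-null samples.

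The genes that these complexes control were higher as lists at E18.5. Of 27 G1/S genes known as E2F targets, 25 passed the test with higher levels and 0 with lower ones in the mutant (median log2 fold change 1.09). Of 30 genes of G2 and mitosis, 27 were called higher and 0 lower, and all 30 had values above 0 (median 1.12). Over all 16322 genes tested, 4.99% were called. Both lists were chosen with earlier results of these data known, so these counts describe the lists and are not an independent test. The median over all genes tested was -0.04 and over the 9 members 0.47. The 3 G1/S genes with the smallest p were Chaf1b, a chromatin assembly subunit, at 24.9 ± 3.71 and 65.3 ± 5.72 CPM, and the replicative helicase subunits Mcm3 at 90.3 ± 10.6 and 221 ± 23.9 CPM and Mcm4 at 107 ± 13 and 232 ± 16.8 CPM (wild type and Cdkn1b-null, SD, n = 4 each). Of the G2/M genes they were Cdc20, an activator of the anaphase-promoting complex, at 41.3 ± 4.45 and 126 ± 8.44 CPM, the midzone protein gene Prc1 at 68.5 ± 12.8 and 194 ± 32.1 CPM, and the mitotic kinase gene Plk1 at 33.5 ± 6.71 and 102 ± 18.5 CPM. Both activators of the G2/M list, Mybl2 and Foxm1, thus had log2 fold changes of 0.49 and 0.60 beside a list median of 1.12, and whether members and targets differ was not tested.

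Of the 6 other complex partners, Tfdp1, the gene of the DP1 partner of E2F, was called higher at E18.5. Its levels were 59.9, 63.2, 62.7 and 67.6 CPM in wild type and 98.2, 84.2, 101 and 85.9 CPM in Cdkn1b-null samples, without overlap (log2 fold change 0.51, SE 0.0986, edgeR adjusted p 0.0149). Rbbp4, the histone-binding MuvB subunit, had a log2 fold change of 0.21, the repressive E2F genes E2f4 and E2f5 had -0.21 and -0.30, the second DP gene Tfdp2 had 0.12, and Dyrk1a, the kinase gene whose product promotes DREAM assembly, had -0.14, none of them called. Upstream of the pocket proteins, 5 of 11 genes were called, against 4.99% of all genes tested. The 5 include Cdkn1b, the mutated gene, whose fall follows from the design. Ccne1, Ccne2 and Cdk2, the genes of the cyclin E kinase that p27Kip1 inhibits, were higher by 1.01, 0.66 and 0.56, and Ccnd2, a D-type cyclin gene, and Cdkn1b were lower, with log2 fold changes of -0.83 and -3.06.

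Cell type markers at E18.5 were compared because bulk RNA cannot tell fewer cells of a type from less RNA per cell. The 6 granulosa lineage markers summed to 347 to 404 CPM in wild type and 406 to 522 CPM in Cdkn1b-null samples, which do not overlap, with Fshr at 3 counts or fewer in every Cdkn1b-null library. Of the 5 tested, 2 had values above 0, the median log2 fold change was -0.11, and Inha, an inhibin subunit gene, was the 1 called (1.14, edgeR adjusted p 0.00795). The 8 germ cell and oocyte markers summed to 206 to 523 and 156 to 329 CPM, with overlap, and all 7 tested had values below 0 (median -0.58, edgeR adjusted p 0.0888 or more). The 6 stroma and theca markers summed to 2497 to 4852 and 2439 to 3446 CPM, with overlap, and 1 of 6 had a value above 0 (median -0.47). Nr2f2 and Tcf21, stromal transcription factor genes, were called lower (-0.52 and -0.78, edgeR adjusted p 0.0436 and 0.0456). No gene was called in the endothelial, macrophage and leukocyte, erythroid, surface epithelium or mesonephric duct lists, and their sums overlapped between genotypes. Erythroid markers varied between libraries, at 0.181% to 3.65% of counts in wild type and 0.173% to 2.64% in Cdkn1b-null samples. The part of such differences in cell types in the Rbl1 and Lin9 results was not tested.

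At the other ages no member was called between the genotypes. At E13.5 the background was 0.00606% of 16508 genes, and 0 members had an unadjusted p under 0.05 in edgeR and 0 were called by DESeq2. Rbl1 was at 36.3, 39.9, 27.9 and 35.7 CPM in wild type and at 44.3, 40.5 and 40.8 CPM in Cdkn1b-null samples, a narrow gap between groups that do not overlap (log2 fold change 0.23, SE 0.141, edgeR adjusted p 0.988). The lowest value, 27.9 CPM, is from the library rich in erythroid RNA. The remaining members had log2 fold changes of -0.28 to 0.28 at E13.5.

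At PND8, 0 members were called by edgeR with a background of 0.349% of 17785 genes. An unadjusted edgeR p under 0.05 was found for 15% of all genes and for 4 members. Over all genes DESeq2 called 741, and among the members 1. That gene was Rbl1, at 52.2, 56.3, 64.7 and 57.1 CPM in wild type and 78.8, 70.5 and 75.8 CPM in Cdkn1b-null samples, which do not overlap (log2 fold change 0.37, SE 0.0745, edgeR adjusted p 0.082, DESeq2 adjusted p 0.00415). Lin9 was also without overlap at 17.9 to 21.5 and 23.1 to 26.9 CPM (log2 fold change 0.32, SE 0.0881, edgeR adjusted p 0.159), and so was Lin54 at 22.7 to 27.3 and 28.7 to 35.1 CPM (log2 fold change 0.29, SE 0.0993, edgeR adjusted p 0.225). Rb1 was at 35.8, 33.5, 48.5 and 34.8 CPM in wild type and 55.2, 48.5 and 48.1 CPM in Cdkn1b-null samples (log2 fold change 0.39, SE 0.124, edgeR adjusted p 0.201). Without wild-type replicate 3 edgeR called Rb1 (log2 fold change 0.52, adjusted p 0.0405) and Rbl1 (0.42, adjusted p 0.0437). With it, edgeR called Rbl1 when low counts were not filtered (adjusted p 0.0384). Of the upstream genes, Ccnd1, Ccnd3 and the mutated gene Cdkn1b were lower at PND8, with log2 fold changes of -0.85, -0.89 and -1.06.

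At 12wk the background was 0.0115% of 17396 genes, and 0 members were called by edgeR or by DESeq2. The mutated gene Cdkn1b was itself not called by edgeR at this age (log2 fold change -1.85, SE 0.309, edgeR adjusted p 0.211). The lack of calls is therefore not evidence of equal levels. An unadjusted edgeR p under 0.05 was found for 9.63% of all genes and for 3 members. They were Rbl2 (log2 fold change -0.32, SE 0.107, edgeR adjusted p 0.445), Lin52 (0.34, SE 0.135, adjusted p 0.486) and Lin54 (0.42, SE 0.146, adjusted p 0.454). Rbl2 was at 140, 124, 161 and 158 CPM in wild type and 116, 123 and 113 CPM in Cdkn1b-null samples, with no overlap. No target gene was called by edgeR at E13.5, PND8 or 12wk. For the 27 G1/S genes the number with an unadjusted p under 0.05 was 1, 10 and 1 at those ages and DESeq2 called 0, 2 and 0, and for the 30 G2/M genes the numbers were 0, 8 and 0 and again 0, 2 and 0. Their medians were 0.11, 0.15 and 0.22 for G1/S and 0.02, 0.14 and 0.11 for G2/M. Over all genes, the share with an unadjusted edgeR p under 0.05 at those ages was 3.49%, 15% and 9.63%.

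**Figure D4:**
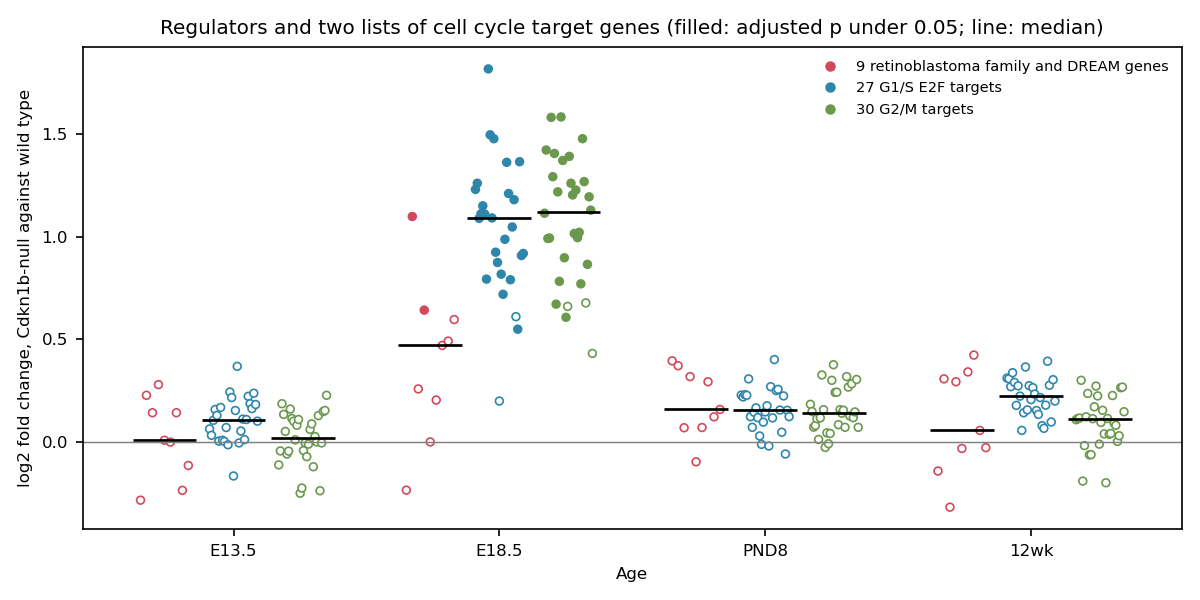
Log2 fold change of Cdkn1b-null against wild type (vertical axis) at each age (horizontal axis) for the 9 members, 27 G1/S genes and 30 G2/M genes. Each point is a gene, filled where the edgeR adjusted p is under 0.05, and lines are medians. At E18.5 the medians are 0.47, 1.09 and 1.12, and at the other ages no median passes 0.22.

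A difference of the genotype effect between ages was tested with all 29 samples. No member was called by edgeR for the 3 interaction terms together, against a background of 0.806% of 20359 genes. An unadjusted p under 0.05 was found for 2 members. DESeq2 called 1 member and, over all genes, 708. Rbl1 had the smallest p (edgeR adjusted p 0.13, DESeq2 adjusted p 0.0173). With each library left out in turn, Rbl1 was called in 1 of 29 fits, at edgeR adjusted p of 0.027 to 0.266. That fit lacked the E18.5 wild-type replicate 1, which held 38.1 CPM of Rbl1 against 19.3 to 29.2 in the others. From E13.5 to E18.5 the Rbl1 effect changed by a log2 value of 0.85 (SE 0.228, edgeR adjusted p 0.0905), with a background of 0.653%, and was not called. That step was called in 2 of 29 such fits, at edgeR adjusted p of 0.0184 to 0.209 over all 29. They lacked the E18.5 wild-type replicate 1 (1.01, edgeR adjusted p 0.0184) or the E13.5 wild-type replicate 3 (0.95, edgeR adjusted p 0.0422). From E18.5 to PND8 the Rbl1 effect changed by -0.72 (SE 0.226, edgeR adjusted p 0.292; background 0.329%) and the Rb1 effect by 0.63 (SE 0.235, edgeR adjusted p 0.435). From PND8 to 12wk every member had an edgeR adjusted p of 0.608 or more, with a background of 0.0246%. For the 3 single steps 3, 2 and 1 members had an unadjusted p under 0.05, as did 11.4%, 8.74% and 7.47% of all genes. DESeq2 was run on the 3 terms together. Of the target genes, 10 of 27 and 16 of 30 were called for the 3 terms together, and so were Ccne1 and the mutated gene Cdkn1b.

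Between ages the comparisons reuse the same samples, so the wild-type and Cdkn1b-null steps are given side by side. From E13.5 to E18.5, Mybl2 fell in both genotypes. It was at 59.1, 62.7, 83 and 44 CPM at E13.5 and at 10.4, 13.1, 10.7 and 11.2 CPM at E18.5 in wild type, far apart (83 CPM is the library rich in erythroid RNA; log2 fold change -2.47, SE 0.208, edgeR adjusted p 3.1e-05). In Cdkn1b-null ovaries it went from 56.6, 57.7 and 49.3 to 14.6, 17.1, 23.7 and 10 CPM (log2 fold change -1.74, SE 0.245, edgeR adjusted p 0.00148). Foxm1 did not pass the test in either genotype, with log2 fold changes of -0.36 and 0.36. In wild type 2 of 9 members were called, 1 higher and 1 lower, with a background of 34%. In Cdkn1b-null ovaries 5 were called, 4 higher and 1 lower, with a background of 30.2%. With a block for the replicate number, 3 members and 3877 genes over all were called in Cdkn1b-null ovaries.

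Rbl2, the pocket gene typical of quiescent cells, rose over the same interval. In wild type it went from 34.9, 38.9, 18.5 and 41.6 to 62.7, 38.8, 66.9 and 63.2 CPM, with the low sample at E18.5 inside the E13.5 range (log2 fold change 0.78, SE 0.243, edgeR adjusted p 0.0312). This call was lost without E18.5 wild-type replicate 1, 3 or 4 or E13.5 wild-type replicate 1, at log2 fold changes of 0.71 to 0.79 and edgeR adjusted p of 0.0653 to 0.0815. In Cdkn1b-null ovaries it went from 38.7, 38.8 and 35.4 to 70.6, 73.3, 72.5 and 66 CPM without overlap (log2 fold change 0.91, SE 0.0941, edgeR adjusted p 0.000306). Rbl1 rose in Cdkn1b-null ovaries from 44.3, 40.5 and 40.8 CPM (log2 fold change 0.58, SE 0.104, edgeR adjusted p 0.00378), while in wild type its log2 fold change was -0.31 (SE 0.198, edgeR adjusted p 0.262).

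The MuvB genes Lin9 and Lin52 were also called higher from E13.5 to E18.5 in Cdkn1b-null ovaries, by log2 fold changes of 0.49 (SE 0.133, edgeR adjusted p 0.0232) and 0.35 (SE 0.115, edgeR adjusted p 0.0456). Same-numbered samples deviated together in this comparison, and blocking on the replicate number ended these calls: 3 members were called, with Lin9 at an adjusted p of 0.0584 and Lin52 at 0.113. Lin9 also lost its call without E18.5 replicate 2, 3 or 4 or E13.5 replicate 1 (log2 fold change 0.37 to 0.50, edgeR adjusted p 0.0505 to 0.0734), and Lin52 without any 1 library except E13.5 replicate 1 (0.28 to 0.38, edgeR adjusted p 0.0607 to 0.118). The target lists fell: 26 of 27 G1/S genes and 27 of 30 G2/M genes were called lower in wild type (medians -1.42 and -1.41), and 14 and 10 in Cdkn1b-null ovaries (medians -0.32 and -0.20), where 1 G2/M gene was called higher. The partners Tfdp1 and Rbbp4 fell as well, with log2 fold changes of -1.27 and -0.39 in wild type and -0.76 and -0.29 in Cdkn1b-null ovaries, where E2f5 was also called lower (-0.75). Cell type markers also moved in this step. The granulosa lineage list had medians of 1.66 in wild type and 1.74 in Cdkn1b-null ovaries. The mesonephric duct list had -3.70 and -2.49, with 0 genes called in Cdkn1b-null ovaries. The part of such changes in the member, partner and target results was not tested.

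The interval from E18.5 to PND8, when follicles begin to grow, moved most members. In wild type 7 of 9 were called (5 higher, 2 lower; background 74.6%), and in Cdkn1b-null ovaries 8 were (5 higher, 3 lower; background 77.4%), shares near those of all genes. Foxm1 moved most: in wild type it went from 8.04, 10.3, 7.14 and 13.2 to 90.1, 91.4, 112 and 87.8 CPM, a 9.22-fold rise (log2 fold change 3.20, SE 0.202, edgeR adjusted p 3.77e-07). In Cdkn1b-null ovaries it went from 11.5, 16, 15.7 and 16.5 to 129, 105 and 89 CPM (log2 fold change 2.79, SE 0.155, edgeR adjusted p 1.48e-07). Mybl2 rose back to 50.9, 45.1, 55.8 and 57.4 CPM in wild type and 58.3, 64.6 and 49.3 CPM in Cdkn1b-null samples, with log2 fold changes of 2.11 (SE 0.132) and 1.76 (SE 0.238) and edgeR adjusted p of 3.73e-07 and 0.000128.

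All 3 pocket genes rose across birth, where 74.6% of all genes were called in wild type and 77.4% in Cdkn1b-null ovaries. Rb1, whose product binds the activator E2Fs, went from 16.1, 17.9, 15 and 15.3 to 35.8, 33.5, 48.5 and 34.8 CPM in wild type, well apart (log2 fold change 1.16, SE 0.143, edgeR adjusted p 3.4e-05), and had a log2 fold change of 1.81 in Cdkn1b-null ovaries (SE 0.158, edgeR adjusted p 2.82e-06). Rbl2 reached 142, 142, 195 and 123 CPM in wild type and 168, 159 and 151 CPM in Cdkn1b-null samples, with log2 fold changes of 1.29 (SE 0.182) and 1.12 (SE 0.0688) and edgeR adjusted p of 8.68e-05 and 2.1e-07. Rbl1 rose by 0.93 in wild type (SE 0.166, edgeR adjusted p 0.000485) and by 0.22 in Cdkn1b-null ovaries (SE 0.0813, edgeR adjusted p 0.032). The latter call was lost without E18.5 Cdkn1b-null replicate 1, 2 or 4 or PND8 replicate 1 or 4 (0.17 to 0.20, edgeR adjusted p 0.0641 to 0.112).

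The MuvB genes Lin52 and Lin37 went the other way in both genotypes. Lin52, whose product is phosphorylated by DYRK1A when DREAM forms, fell from 33.3, 25.9, 30.4 and 26.4 to 10.1, 12.5, 11.1 and 11.3 CPM in wild type (log2 fold change -1.45, SE 0.12, edgeR adjusted p 1.98e-06) and had a log2 fold change of -1.57 in Cdkn1b-null ovaries (SE 0.117, edgeR adjusted p 8.69e-07). Lin37, a subunit needed for repression by DREAM, fell from 33.4, 38.7, 29.8 and 27.4 to 17.1, 18.5, 19.1 and 18.7 CPM (log2 fold change -0.91, SE 0.13, edgeR adjusted p 9.79e-05) and had -0.99 in Cdkn1b-null ovaries (SE 0.106, edgeR adjusted p 1.3e-05). Neither set of samples overlapped across birth. Lin9 and Lin54 had log2 fold changes of -0.03 and -0.04 in wild type, and -0.34 (edgeR adjusted p 0.0117) and -0.20 (edgeR adjusted p 0.199) in Cdkn1b-null ovaries. The Lin9 fall was lost without PND8 Cdkn1b-null replicate 3 (-0.28, edgeR adjusted p 0.0654), and Lin54 was called without E18.5 Cdkn1b-null replicate 4 (-0.33, edgeR adjusted p 0.0142).

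All 6 partners were called across birth in both genotypes, 5 higher and E2f5 lower. Over all genes, 74.6% were called in this step in wild type and 77.4% in Cdkn1b-null ovaries. The counts in this paragraph are to be read beside those shares. In wild type the log2 fold changes were 0.83 for Rbbp4, 0.88 for E2f4, 1.05 for Tfdp1, 0.33 for Tfdp2, 1.12 for Dyrk1a and -0.71 for E2f5. The G1/S list had 20 genes called higher and 3 lower in wild type (median 0.83) and 8 higher and 12 lower in Cdkn1b-null ovaries (median -0.06), and the G2/M list had 22 and 1 (median 0.97) and 8 and 9 (median 0.02). The granulosa lineage markers summed to 3002 to 3758 CPM at PND8 in wild type against 347 to 404 at E18.5, and Amh, a granulosa hormone gene, was at 695 to 1005 CPM against 0.551 to 1.37. The part of this change in the Foxm1, Mybl2 and pocket gene results was not tested. Sample names in the file header also change form at birth. If this marks the combined projects named there, age and project cannot be told apart in this step.

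**Figure D5:**
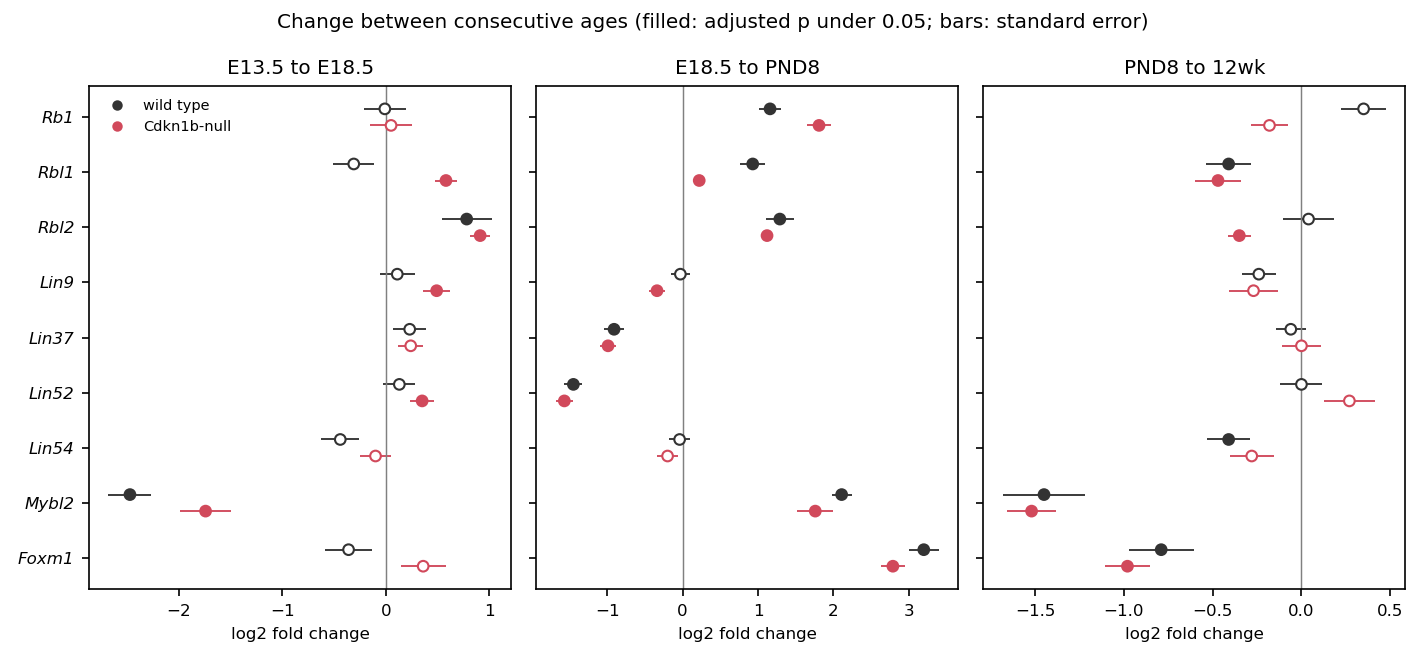
Log2 fold change between consecutive ages (horizontal axis, its own range in each panel) for the 9 genes (rows), wild type in black and Cdkn1b-null in red, with standard errors as bars and filled points for an edgeR adjusted p under 0.05. From E18.5 to PND8, Foxm1 is at 3.20 and 2.79 and Lin52 at -1.45 and -1.57.

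From PND8 to 12wk the activators fell. Mybl2 dropped to 16.4, 12.8, 28.3 and 14.5 CPM in wild type (log2 fold change -1.45, SE 0.233, edgeR adjusted p 0.00235) and 20.9, 20.1 and 15.4 CPM in Cdkn1b-null samples (-1.52, SE 0.139, edgeR adjusted p 0.00109). Foxm1 dropped to 41.2, 49.1, 74.2 and 43.2 CPM in wild type (log2 fold change -0.79, SE 0.182, edgeR adjusted p 0.0112) and 52.8, 53.1 and 47.6 CPM in Cdkn1b-null samples (-0.98, SE 0.126, edgeR adjusted p 0.00255), still above every sample taken before birth. In each genotype 4 of 9 members were called, all lower, with backgrounds of 30.5% in wild type and 29.1% in Cdkn1b-null ovaries. The target lists fell too, with 27 of 27 and 29 of 30 genes called lower in wild type (medians -0.88 and -0.87) and 25 and 30 in Cdkn1b-null ovaries (medians -0.80 and -0.91). Cell type markers also moved in this step. The germ cell and oocyte list had medians of -3.53 in wild type and -5.58 in Cdkn1b-null ovaries. The macrophage and leukocyte list had 2.69 and 3.03. The part of such changes in the member and target results was not tested.

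Smaller falls were less firm. In wild type Rbl1 fell by 0.41 on the log2 scale (SE 0.126, edgeR adjusted p 0.036), and the call held only without 12wk replicate 3, with adjusted p of 0.0535 to 0.0912 without any other 1 library. Lin54 also fell by 0.41 (SE 0.122, edgeR adjusted p 0.0325), and lost the call without 12wk replicate 1 or 4 or PND8 replicate 1, 3 or 4 (-0.42 to -0.33, edgeR adjusted p 0.0691 to 0.0845). Rb1, at 43.1, 41.5, 50.9 and 47.6 CPM at 12wk, had a log2 fold change of 0.35 (edgeR adjusted p 0.0646) and was called without PND8 wild-type replicate 3 (0.48, edgeR adjusted p 0.0132). In Cdkn1b-null ovaries Rbl2 fell by 0.35 (SE 0.066, edgeR adjusted p 0.00917). Rbl1 fell by 0.47 there (SE 0.128, edgeR adjusted p 0.031), and the call was lost without 12wk replicate 1 or 4 or PND8 replicate 1, 3 or 4 (-0.52 to -0.36, edgeR adjusted p 0.0628 to 0.0945). Lin37 and Lin52 were level in wild type, with log2 fold changes of -0.06 (SE 0.0833) and -0.00 (SE 0.118).

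Across the 8 groups, the members fell into several orders. The 4 groups taken before birth were all below the 4 taken after it for Rb1, Rbl2 and Foxm1, and all above them for Lin37 and Lin52, with no overlap between the 2 sets of samples. The share of all genes that separate in this way is not given here. From E18.5 to PND8 alone, 74.6% of genes were called in wild type and 77.4% in Cdkn1b-null ovaries. If the combined projects named in the file header divide at birth, age and project cannot be told apart in this split. For Rbl1 the highest group was PND8 Cdkn1b-null at 75 ± 4.2 CPM (n = 3), followed by E18.5 Cdkn1b-null at 62.3 ± 5.61 CPM (n = 4) without overlap, and the lowest was E18.5 wild type at 28.5 ± 7.73 CPM (n = 4). For Lin9 the highest was E18.5 Cdkn1b-null at 29.9 ± 2.47 CPM (n = 4), with no overlap with the next group, and for Lin54 it was E13.5 Cdkn1b-null at 37.5 ± 2.73 CPM (n = 3), which overlapped the next. Mybl2 was high at E13.5 and PND8 and low at E18.5 and 12wk in both genotypes, with 44 CPM or more in the first 4 groups and 28.3 CPM or less in the others.

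Genes nearest to each member over the 8 group means, out of 12935 compared, were found by the root mean square difference of centred log2 CPM. The nearest to Foxm1 was Mki67, a proliferation marker, at 0.137 beside a range of 3.49 for Foxm1 itself. Mtbp, at 0.127, was nearest to Rbl1, whose range was 1.43. For Mybl2, Phf19 was closest at 0.285 beside a range of 2.41. Lin37 was closest to Cnot8 at 0.0156, Lin52 to Snx3 at 0.0677, Lin9 to Zfp382 at 0.0895, Lin54 to Zfp955a at 0.0666, Rb1 to Peg13 at 0.0893 and Rbl2 to Eps8 at 0.131. These are descriptions over 8 points that share libraries. Some members overlap other expressed genes on the opposite strand, Rb1 with Rcbtb2 and Lpar6, Rbl2 with Aktip and Lin37 with Hspb6, and since strandedness is not stated, their reads may be shared.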

How the data were processed

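Per the submitters' processing notes, reads were handled with Trim Galore, STAR 2.5.2, RSEM 1.3.0 and FastQC 0.11.5. Per the file headers, the authors deposited gene-level RSEM expected counts, which need not be whole, on Ensembl genes. Genome build, Ensembl release and strandedness are not given in the sources used here, and the header names a folder of 2 combined projects without saying which samples belong to each. Sample names in the header carry the letters OC before birth and lack them after it. Whether this marks the projects is not stated. If it does, age and project cannot be told apart across birth. Expected counts were rounded. RSEM shares reads among similar genes, so overlapping genes are uncertain. Symbols were matched for 51633 of 51912 IDs, and positions and lengths are those of GENCODE M21 (GRCm38), which may differ from the authors' annotation. Promoters are RefSeq's.

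Each genotype comparison and age step was fitted on its own samples with edgeR 4.0.16 (R 4.3.3): TMM, filterByExpr (minimum count 10, minimum total 15), robust quasi-likelihood F test, Benjamini-Hochberg over all genes tested, threshold 0.05. The standard error is the log2 fold change divided by the square root of F. The interaction used all 29 samples and 3 coefficients. Alternatives were RLE size factors, no filter, DESeq2 1.42.0, all groups in 1 fit, the replicate block and leaving out each replicate. The scripts were tested on simulated data. Named genes were the members, Cdkn1b, the partners, called upstream genes, the 3 target genes per list with the smallest p at E18.5 and the nearest genes with a mean of at least 2 CPM. Members and lists were chosen with earlier results of these data known.

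Same-numbered samples deviated together in every pair only from E13.5 to E18.5 in Cdkn1b-null ovaries (correlations 0.231, 0.132 and 0.204). A fit with a block for the number is therefore given beside the main fit there, which has no block. This rests on the data, over 10 two-group comparisons looked at, and no label says that the numbers pair samples. All 9 members passed the filter in every comparison. Where groups are said not to overlap, the share of all genes without overlap is not given, so this describes the samples only.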

Additional observations from a re-analysis of the deposited data

Results flagged for a closer look

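Of 45 member-by-group sets of 4 samples, 4 held a sample far from the other 3 by Dixon's ratio of gap to range at the 95% level, and chance gives about 1 in 20. In PND8 wild type, replicate 3 held 48.5 CPM of Rb1 against 33.5 to 35.8 CPM in the others (ratio 0.849), and 112 CPM of Foxm1 against 87.8 to 91.4 CPM (ratio 0.855). The same library was also highest of its group for Rbl1, Rbl2, Lin9, Lin37 and Lin54 (64.7, 195, 21.5, 19.1 and 27.3 CPM). In E18.5 wild type, replicate 2 held 38.8 CPM of Rbl2 against 62.7 to 66.9 CPM (ratio 0.85), and it was also lowest for Rbl1, Lin9, Lin52 and Lin54 (19.3, 15.8, 25.9 and 19 CPM) and highest for Rb1, Lin37 and Mybl2 (17.9, 38.7 and 13.1 CPM). In E18.5 Cdkn1b-null ovaries, replicate 1 held 11.5 CPM of Foxm1 against 15.7 to 16.5 CPM (ratio 0.831).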

How the results depend on the processing

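Over the 10 two-group comparisons, 1107 member log2 fold changes were recomputed; 1042 stayed on their side of the threshold, of which 57 changed sign without a call in either fit, 56 lost a call, 9 gained one and 0 turned sign with a call. The number of members called at PND8 between genotypes was 1 with no filter on low counts and 1 with DESeq2. For the interaction it was 1 with DESeq2. With the replicate block it was 1 in wild type from E13.5 to E18.5 and 3 in Cdkn1b-null ovaries; in paired fits elsewhere, Lin54 lost its call from PND8 to 12wk in wild type (adjusted p 0.0663), Rb1 gained one there (0.0307), Rbl1 and Lin9 lost theirs from E18.5 to PND8 in Cdkn1b-null ovaries (0.113 and 0.0624) and Rbl1 from PND8 to 12wk (0.0654), all by edgeR. Leaving out each replicate gave 1 to 2 members called for the genotype at E18.5, 0 to 2 at PND8, 1 to 2 in wild type from E13.5 to E18.5, 2 to 4 from PND8 to 12wk, 3 to 4 in Cdkn1b-null ovaries from E13.5 to E18.5, and 0 to 1 for the interaction and for its first step.

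Other calls that changed were Lin52 from E13.5 to E18.5 in Cdkn1b-null ovaries, lost with RLE (0.0619), no filter (0.0913) or all groups in 1 fit (0.0554). With all groups in 1 fit, Lin54 was gained from E13.5 to E18.5 in wild type (0.0269), and Rbl1 and Lin9 from E18.5 to PND8 (0.132 and 0.0895) and Rbl2 from PND8 to 12wk (0.122) were lost in Cdkn1b-null ovaries. The cause was not tested. Over all genes, DESeq2 called 71, 1676, 741 and 298 between genotypes at the 4 ages and 708 for the interaction, against 1, 814, 62, 2 and 164 by edgeR. No filter gave 258 at PND8 and 12 at 12wk, the block 8 and 10, and all groups in 1 fit 59 at E13.5, 0 at PND8 and 68 at 12wk. Leaving out a replicate gave 246 to 1372 at E18.5 and 0 to 147 at PND8. With the longest transcript as length, 78 of 96 length-scaled levels and shares moved by more than 1 SD. Depth did not limit the members, whose lowest level was 7.14 CPM, while 3 counts are 0.0622 to 0.213 CPM.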
